A study of Capra hircus with 6 samples.

Results

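Of the 2551 lncRNA loci measured in the goat hypothalamus, 326 carried 2 or more of the assembled lncRNA transcripts. A locus is the gene identifier (XLOC) under which the authors' assembly grouped its transcripts (TCONS). These 326 loci were all those whose identifier was shared by at least 2 transcripts of the table of lncRNA levels, and they held 718 of its 2943 transcripts. There were 273 loci with 2 transcripts, 41 with 3, 11 with 4 and 1 with 5. In 24 of the loci a further 30 assembled transcripts had no per-library values and were left out of the sums. Hypothalami of female Anhuai goats were compared between 3 pubertal animals of 4.5 to 5 months, taken in the late follicular phase, and 3 prepubertal animals of 2.5 to 3 months. All goats were housed alike, and 1 strand-specific paired-end library was made per goat. Stage and age therefore cannot be told apart, nor can fewer cells of a type from less RNA per cell, since the tissue was sequenced in bulk.

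A long noncoding RNA (lncRNA) is a transcript that is not translated into a protein, and like an mRNA it can be made in several forms from the same locus. Forms arise when the polymerase starts or stops at different places, or when the spliceosome joins different exons or leaves an intron in. Introns of the common class open with the bases GT and close with AG. Because forms can differ in the sequences that bind proteins or other RNAs, which form prevails can matter as much as how much RNA the locus makes. The share of a transcript is used below for its percentage of the summed level of its locus in a library, the locus sum for that summed level, and the most abundant transcript for the one with the highest mean over the 6 libraries.

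Levels are given in FPKM, the fragments of a transcript scaled by its length and by the mapped fragments of the library. The levels of short transcripts came in whole steps, which were read here as the value of 1 fragment at their length, a reading that the files do not state. Among transcripts of up to 350 nt in loci with 1 transcript, 99.8% of the 1231 values under 3.5 steps lay within 0.1 of a whole number of steps, with the step taken only from transcripts of other lengths. Among the transcripts of this length in loci with several transcripts it was 82.2% of 208 values, where the fragments of overlapping forms are divided between them. Read in this way, a fragment at 203 nt was worth 21.2, 7.94 and 14.5 FPKM in pubertal libraries 1 to 3 and 15.6, 12.5 and 12.5 FPKM in prepubertal libraries 1 to 3. At 245 nt it was worth 3.39, 1.71 and 2.79 FPKM and 2.85, 2.38 and 2.30 FPKM in the same order. Between these lengths the worth of a fragment thus fell more steeply than in proportion to length. The step of pubertal library 1 was 2.67 times that of library 2 at 203 nt and 1.99 times at 245 nt. The steps thus give fragments per transcript but no single relative depth of the libraries. The study reports its read numbers, which were not used here. The 291 values above 0 of the 95 such transcripts in 73 of the 326 loci had a median of 2 fragments, and 71.5% of them rested on 3 fragments or fewer. A high FPKM of a very short transcript can thus stand for a single fragment. Values listed at 0 were not read as absence.

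The forms of a locus differed in several ways, and the sequences below, as deposited with the assembly, show the main kinds. The first set shows a stretch that lies inside the longer form and is missing from the shorter one, in capitals with 20 flanking bases in lower case, and of the longer stretches the first and the last 80 bases. The 382-base stretch of XLOC_2036925 and the 391-base stretch of XLOC_946849 open with GT and close with AG, while the 80-base stretch of XLOC_785699 opens with GA and closes with AA. The limits of the first could be moved by up to 4 bases without changing either form, and those of the last by 1.
XLOC_2036925 TCONS_04294309, start of the stretch: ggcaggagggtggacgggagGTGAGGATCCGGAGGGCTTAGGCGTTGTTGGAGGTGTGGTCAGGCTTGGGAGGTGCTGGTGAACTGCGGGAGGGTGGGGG
XLOC_2036925 TCONS_04294309, end of the stretch: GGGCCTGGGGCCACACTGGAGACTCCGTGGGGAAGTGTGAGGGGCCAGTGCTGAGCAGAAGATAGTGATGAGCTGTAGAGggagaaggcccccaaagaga
XLOC_946849 TCONS_01955721, start of the stretch: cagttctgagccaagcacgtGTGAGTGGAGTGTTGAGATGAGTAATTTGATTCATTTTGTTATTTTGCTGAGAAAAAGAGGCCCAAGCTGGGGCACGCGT
XLOC_946849 TCONS_01955721, end of the stretch: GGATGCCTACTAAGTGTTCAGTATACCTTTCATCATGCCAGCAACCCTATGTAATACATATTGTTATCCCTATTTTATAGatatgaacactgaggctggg
XLOC_785699 TCONS_01528056: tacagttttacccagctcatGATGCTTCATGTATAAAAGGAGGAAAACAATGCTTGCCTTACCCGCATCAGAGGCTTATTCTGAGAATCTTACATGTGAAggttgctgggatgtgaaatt

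The second set shows forms that open with different bases and then run into the same sequence, in capitals up to the point where they join and with the first 10 shared bases in lower case. XLOC_957527 opened with 100 or 86 bases of its own, and XLOC_2154869 with 196 or 285, before the forms joined. Alternative first exons leave forms of this kind, though exon positions were not analysed here.
XLOC_957527 TCONS_01961607: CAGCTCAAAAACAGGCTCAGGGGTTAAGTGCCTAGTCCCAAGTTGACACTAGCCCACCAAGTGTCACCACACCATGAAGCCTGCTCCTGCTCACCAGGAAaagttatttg
XLOC_957527 TCONS_01986445: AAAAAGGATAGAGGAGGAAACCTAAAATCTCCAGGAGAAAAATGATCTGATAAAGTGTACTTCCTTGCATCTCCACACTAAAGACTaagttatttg
XLOC_2154869 TCONS_04531453: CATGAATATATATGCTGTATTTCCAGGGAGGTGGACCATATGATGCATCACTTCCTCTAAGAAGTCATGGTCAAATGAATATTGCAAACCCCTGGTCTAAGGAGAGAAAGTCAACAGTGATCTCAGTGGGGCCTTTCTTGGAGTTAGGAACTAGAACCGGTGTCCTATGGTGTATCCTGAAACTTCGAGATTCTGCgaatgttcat
XLOC_2154869 TCONS_04674863: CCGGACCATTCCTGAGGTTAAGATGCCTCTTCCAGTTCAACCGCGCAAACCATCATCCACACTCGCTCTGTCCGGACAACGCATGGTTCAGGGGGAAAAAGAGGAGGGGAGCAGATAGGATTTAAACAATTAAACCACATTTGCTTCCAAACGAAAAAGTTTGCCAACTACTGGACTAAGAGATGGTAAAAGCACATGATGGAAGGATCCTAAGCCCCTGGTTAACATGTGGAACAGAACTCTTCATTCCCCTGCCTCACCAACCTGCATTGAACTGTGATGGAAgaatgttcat

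The third set holds whole short transcripts on which later results turn. In both forms of XLOC_1764250, in the 264-nt form of XLOC_905383 and in the 290-nt form of XLOC_049553, capitals mark the bases not shared with the other form of the locus. The last 34 bases of the 290-nt form were its own and open with GTAAG, the letters typical of the start of an intron. The 2 forms of XLOC_364036 shared no run of 31 bases, so no letters are marked in the 245-nt form shown.
XLOC_1764250 TCONS_03682321: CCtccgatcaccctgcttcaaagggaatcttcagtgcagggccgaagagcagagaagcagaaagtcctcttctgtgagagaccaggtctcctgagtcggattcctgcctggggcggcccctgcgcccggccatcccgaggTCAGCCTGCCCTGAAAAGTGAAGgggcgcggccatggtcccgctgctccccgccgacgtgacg
XLOC_1764250 TCONS_03758087: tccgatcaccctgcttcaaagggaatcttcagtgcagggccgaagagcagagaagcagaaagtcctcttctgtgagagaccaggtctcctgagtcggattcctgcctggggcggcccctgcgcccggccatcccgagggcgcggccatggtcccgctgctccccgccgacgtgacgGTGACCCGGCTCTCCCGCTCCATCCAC
XLOC_905383 TCONS_01814422: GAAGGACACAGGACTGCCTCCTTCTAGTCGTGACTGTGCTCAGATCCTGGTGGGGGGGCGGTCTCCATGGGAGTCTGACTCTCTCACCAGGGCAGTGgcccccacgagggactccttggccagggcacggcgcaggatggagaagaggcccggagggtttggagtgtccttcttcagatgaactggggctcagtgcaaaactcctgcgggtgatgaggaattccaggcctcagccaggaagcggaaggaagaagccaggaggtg
XLOC_049553 TCONS_00088205: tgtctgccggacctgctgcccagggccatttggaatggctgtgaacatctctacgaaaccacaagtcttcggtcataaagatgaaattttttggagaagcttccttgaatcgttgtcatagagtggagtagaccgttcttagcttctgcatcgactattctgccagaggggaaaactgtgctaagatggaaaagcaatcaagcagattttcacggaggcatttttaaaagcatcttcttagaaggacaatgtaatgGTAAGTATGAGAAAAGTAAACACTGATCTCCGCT
XLOC_364036 TCONS_00690107: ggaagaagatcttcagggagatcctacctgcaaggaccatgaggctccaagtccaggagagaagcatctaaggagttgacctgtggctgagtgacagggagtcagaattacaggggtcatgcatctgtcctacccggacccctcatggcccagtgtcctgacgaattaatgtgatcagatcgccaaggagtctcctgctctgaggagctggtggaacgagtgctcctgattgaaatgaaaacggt

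Loci with several transcripts held longer RNAs than loci with 1 transcript. The median length of their 718 transcripts was 883 nt, with a range of 203 to 18289 nt, against 557 nt for the 2225 transcripts that stood alone. The GC content was close, with medians of 47.2% and 47.9%, and the longest open reading frame had a median of 58.5 against 46 codons. Of the 718 transcripts, 431 (60.03%) were above 0 in all 6 libraries and 119 were listed at 0 in 3 or more. Of the transcripts that stood alone 48.4% were above 0 in all 6 libraries. At the level of the locus, 279 of the 326 sums (85.6%) were above 0 in every library.

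The median locus sum was also higher than the median level of loci with 1 transcript, in 6 of 6 libraries. The difference of the medians on the log2(sum + 1) scale was 0.69 ± 0.0433 (SD, n = 6). The difference was 0.33 when only the most abundant transcript of each locus was counted. Both values are descriptions without a test, since a sum of several transcripts, or the highest of them, is set against a single transcript and is favoured by its construction. The share of loci above 0 in a library was 95.7% with several transcripts and 72.9% with 1. A locus enters the group with several transcripts only if assembly found more than a single form, and how far assembly depended on the level was not tested.

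Pairs of forms mostly overlapped in sequence. Comparing the most abundant transcript with the next one by runs of at least 31 identical bases, 164 of the 326 loci (50.3%) had 1 shared stretch and other ends. In 91 loci (27.9%) the forms had 2 or more shared stretches, in 3 the shorter lay whole inside the longer, and in 68 (20.9%) they shared none. Shared sequence made up a median of 57.9% of the shorter form. The same first 31 bases were found in 31 loci, the same last 31 bases in 43, and both in 18. In 58 loci no pair of transcripts shared a stretch at all. Among them was XLOC_1486935, with forms of 490, 621 and 388 nt. Shorter shared runs and positions in the genome were not examined, so the grouping of such forms under 1 identifier was taken from the assembly.

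Stretches present in one form and missing from another, between stretches that both share, were found 116 times in 97 loci. Of these, 47 (40.5%) in 46 loci opened with GT and closed with AG in the sense of the transcript, 0 opened with CT and closed with AC, as an intron read on the wrong strand would, and 69 had other ends. Among all windows of the same lengths in the same transcripts, 1.34% had GT and AG ends and 1.07% had CT and AC ends. The assembly joined exons by spliced reads from strand-specific libraries. These percentages therefore describe its forms and are no separate test of splicing. The 47 stretches had a median of 108 bases and a range of 4 to 1186, 33 of them had 50 bases or more, and 17 opened with GTAAG or GTGAG. The form that held the stretch had a median of 47.3% of the level of its pair, and the form without it was the higher one in 25 of 47 pairs. Neither form prevailed as a rule. Forms of a pair can also differ outside the stretch, so these shares do not describe the stretch alone. The median share of the form with the stretch was 56.2% ± 6.10 in pubertal and 51.5% ± 5.01 in prepubertal libraries (SD, n = 3 each; exact two-sided permutation p = 0.5).

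**Figure D1:**
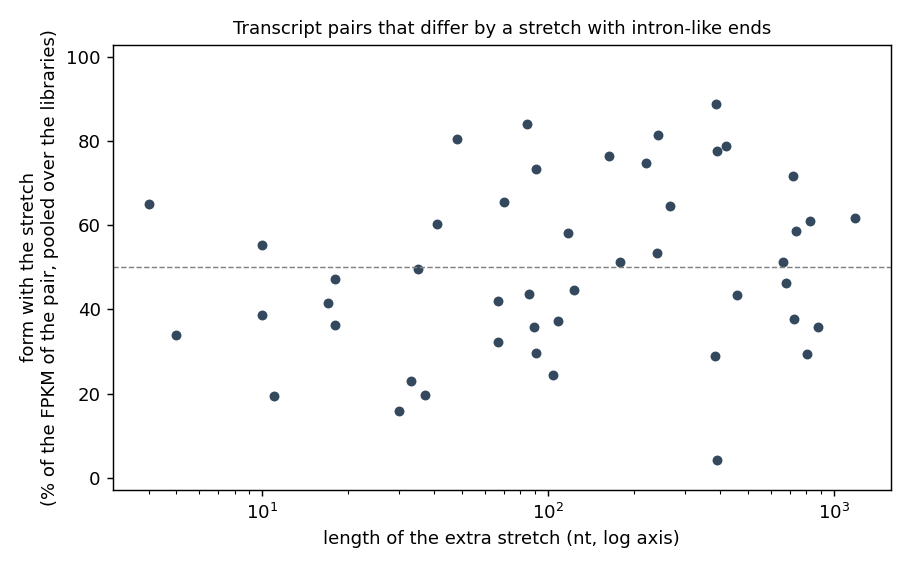
Share of the form that holds an extra stretch with intron-like ends (vertical axis, percentage of the FPKM of the pair pooled over the 6 libraries) against the length of the stretch in nt (horizontal log axis), with 1 point for each of the 47 stretches and a dashed line at equal levels. Points lie on both sides of the line across the range of lengths, and the lowest is the 391-base stretch of XLOC_946849 at 4.14%. Forms of a pair can also differ outside the stretch.

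The 2 loci whose stretches are printed above behaved differently. In XLOC_946849 the 972-nt form, which lacks the stretch, stood at 19.9, 14.0 and 9.91 FPKM in pubertal and 21.9, 17.1 and 19.9 FPKM in prepubertal libraries, and the 2880-nt form with the stretch at 0.675, 0.901 and 0.907 against 0.469, 0.758 and 0.734 FPKM. The shorter form held between 91.6% and 97.9% of the sum in every library. These forms also differ outside the stretch, as their lengths show, so their shares do not describe the stretch alone. In XLOC_2036925 the 311-nt form held 74.7%, 71.6% and 59.5% in pubertal and 53.0%, 80.1% and 77.7% in prepubertal libraries. The form with the 382-base stretch stayed between 7.39 and 11.7 FPKM in all 6, while the shorter form ranged from 13.2 to 29.8 FPKM, with the stages overlapping in both.

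XLOC_785699 combined 3 such differences in 4 forms. A 122-base stretch was missing from the 2132-nt form, a 734-base stretch with GT and AG ends from the 1570-nt form, and the 80-base stretch was found only in the 2384-nt form. The most abundant form, of 2304 nt, held 35.8%, 30.3% and 21.7% in pubertal and 44.0%, 38.6% and 21.3% in prepubertal libraries. It led the locus in 3 libraries, and the 2384-nt form led in the others.

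**Figure D2:**
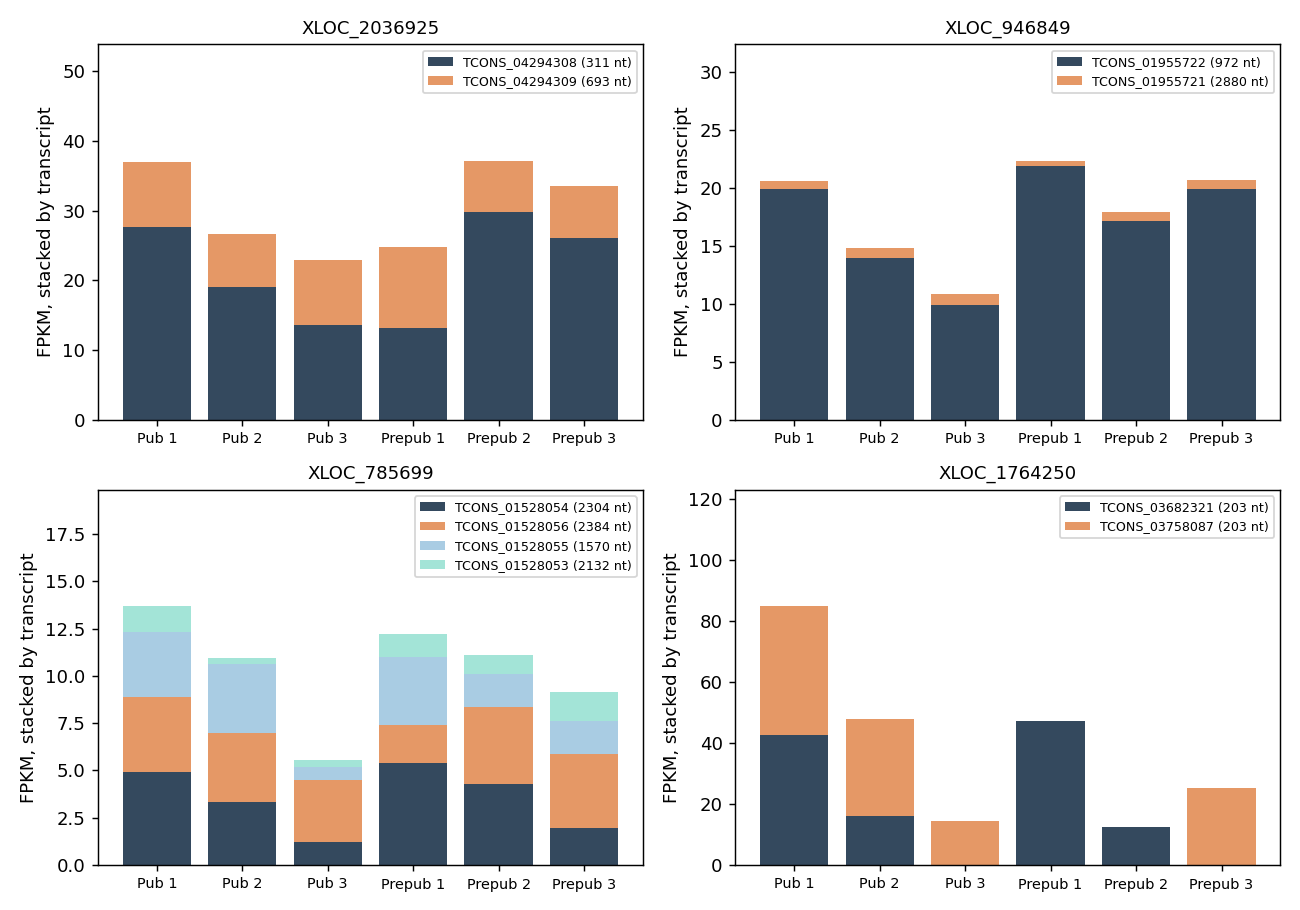
Level of each transcript of 4 loci in the 3 pubertal (Pub) and 3 prepubertal (Prepub) libraries, as stacked bars in FPKM from 0 with 1 colour per transcript and its length in the legend. The 972-nt form of XLOC_946849 fills at least 91.6% of every bar, while both 203-nt forms of XLOC_1764250 range from 0% to 100%.

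The most abundant transcript held a median of 63.5% of the level of its locus pooled over the libraries. It held 90% or more in 16 loci and less than 50% in 29. By its shares a locus behaved like a median of 1.93 equally abundant transcripts. Among the 273 loci with 2 transcripts the more abundant form was the shorter one in 149 (54.6%) and the longer one in 122. With levels multiplied by transcript length, another transcript led in 60 of the 326 loci (18.4%). That product is not the number of fragments, since at the shortest lengths a fragment lost worth more steeply than length rose.

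The leading transcript often changed from goat to goat. Among the 319 loci with a mean sum of at least 0.5 FPKM, the same transcript led in all 6 libraries in 68 (21.3%). The SD of its share over the libraries had a median of 24.7 percentage points. In 57 of these loci the share went from 0% to 100% between libraries. Loci with higher sums held steadier, with the same leader in 42.6% of the 68 loci at 3 FPKM or more and a median SD of 12.8 points, against 3.49% and 33.0 points in the 86 loci between 0.5 and 1 FPKM. Length moved with it too. The median SD was 38.5 points where the most abundant transcript was under 500 nt, 23.2 points from 500 to under 1500 nt and 14.7 points at 1500 nt or more, and full swings from 0% to 100% were seen in 40.4%, 10.1% and 2.33% of these loci. A fragment weighs most at the shortest lengths, and the part of depth in these swings was not tested.

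**Figure D3:**
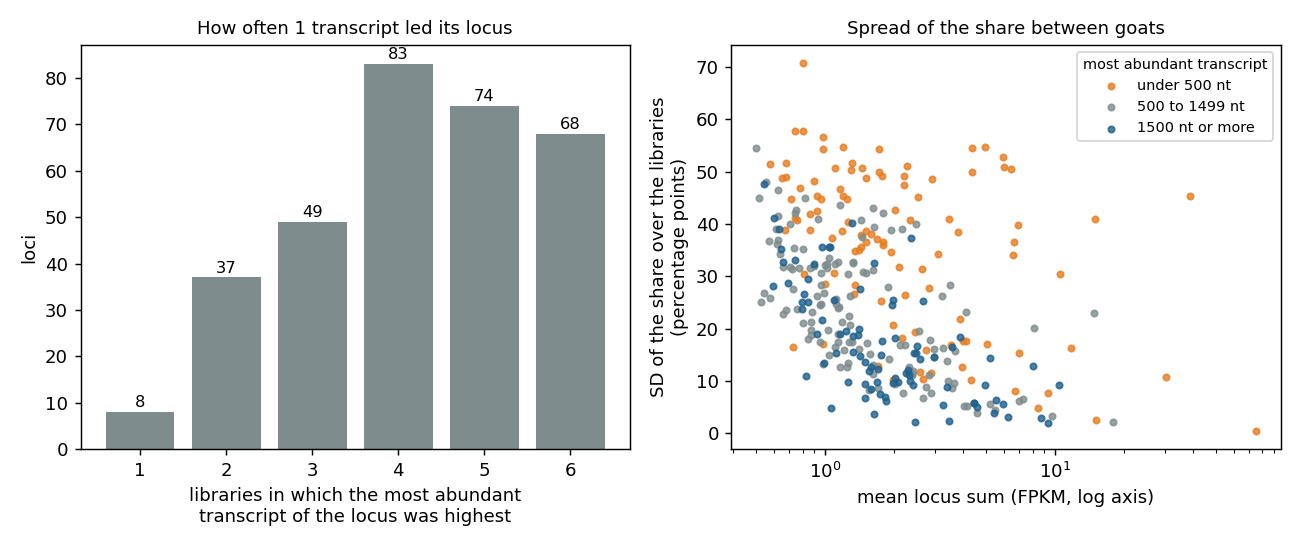
Left, number of loci (bars) by the number of libraries in which their most abundant transcript was the highest, for the 319 loci with a mean sum of at least 0.5 FPKM; 68 were led by it in all 6 libraries. Right, SD of its share over the libraries in percentage points against the mean locus sum in FPKM (log axis), with 1 point per locus coloured by the length of the most abundant transcript; points lie lower at higher sums and at greater lengths.

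How much sequence the forms shared also went with how their levels varied together. Where the leading pair of forms shared 90% or more of the shorter one, the correlation of their levels over the 6 libraries had a median r of -0.43 and was negative in 60 of 78 loci. This lay mostly in loci with low sums, with a median r of -0.06 and 14 of 24 negative at 3 FPKM or more, against -0.58 and 46 of 54 below that. Where the forms shared nothing it had a median r of 0.23 and was negative in 20 of 66. The points of each r are the same 6 libraries, and fragments that fit both forms are divided between them when levels are estimated.

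The locus with the highest sum, XLOC_049553, was among the steadiest. Its 290-nt form stood at 102.9, 43.0 and 82.3 FPKM in pubertal and 68.6, 70.4 and 77.9 FPKM in prepubertal libraries and held 98.6% to 100% of the sum. Its 1122-nt form stayed at 0.789 FPKM or less. XLOC_2040430, with forms of 353 and 1921 nt, was similar, and the shorter form held between 90.5% and 97.2%. XLOC_1764250 had the second highest sum, with 84.8, 47.7 and 14.5 FPKM against 47.1, 12.6 and 25.1 FPKM, and was not steady. Its 203-nt forms held 50%, 33.3% and 0% (the form TCONS_03682321) in pubertal and 100%, 100% and 0% in prepubertal libraries. In fragments these were 2 of 4, 2 of 6 and 0 of 1, and 3 of 3, 1 of 1 and 0 of 2.

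Among the loci with most transcripts, XLOC_1563180 had 5 forms of 2164 to 6918 nt and sums of 4.29, 4.70 and 6.61 FPKM in pubertal and 3.79, 7.22 and 4.63 FPKM in prepubertal libraries. Its 2164-nt form led on average, with shares from 15.2% to 53.6%, while by level times length the 6858-nt form led. The 6858- and 6918-nt forms shared 99.5% of the shorter one. XLOC_413637, with 4 forms, was led by its 380-nt form at 63.6% to 77.3% in every library, while by level times length its 2173-nt form led and the 380-nt form had 35.0%.

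Whether a stage had a clearer leader was asked per library. The median share of the most abundant transcript was 65.2% ± 0.785 in pubertal and 63.0% ± 1.31 in prepubertal libraries (SD, n = 3 each), and the stages did not overlap (exact two-sided permutation p = 0.1, the smallest that 3 against 3 can give). The number of loci with a single transcript above 0 was 71.0 ± 4.36 and 60.7 ± 2.52 (SD, n = 3 each; exact permutation p = 0.1). The share of loci led by their overall most abundant transcript was 72.8% ± 0.884 and 72.5% ± 2.57 (exact permutation p = 1). None of these tests could pass 0.05.

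The second question was whether the total output of the loci differed between the stages. Sums were tested over all lncRNA loci with limma, with positive changes for higher levels in pubertal goats. Of the 326 loci, 14 had an unadjusted p under 0.05, which is 4.29% against 2.84% of all 2534 loci tested and 2.63% of the loci with 1 transcript. Of these, 5 were higher in pubertal goats (1.53% against 1.18% of all loci) and 9 lower (2.76% against 1.66%). None passed the adjustment over all loci (Benjamini-Hochberg, lowest adjusted p = 0.850). The stages did not overlap in 29 loci (8.90% against 6.35% of all loci), 9 of them higher (2.76% against 2.6%) and 20 lower (6.13% against 3.75%). The median change was -0.03 on the log2 scale in the 326 loci and -0.03 in all loci.

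Among the higher sums, XLOC_1486935 stood at 3.59, 3.72 and 2.61 FPKM in pubertal and 1.57, 0.478 and 1.03 FPKM in prepubertal libraries. All 3 pubertal values lay above all prepubertal ones, a change of 1.11 ± 0.26 (SE) on the log2 scale (unadjusted p = 0.00513, adjusted p = 0.926). Its 490-nt form carried the difference with 2.52, 2.71 and 1.85 against 0.425, 0.361 and 0.695 FPKM (unadjusted p = 0.00101, adjusted p = 0.756), while its 621- and 388-nt forms overlapped between the stages. XLOC_2236740 had both forms above the prepubertal values, with sums of 5.12, 3.79 and 6.15 against 0.0409, 3.0002 and 1.31 FPKM (change 1.48 ± 0.50, unadjusted p = 0.0235). In XLOC_1573238, whose 1563-nt form holds a 242-base stretch with GT and AG ends, sums were 1.16, 1.54 and 1.21 against 0.839, 0.378 and 0.680 FPKM (change 0.50 ± 0.19, unadjusted p = 0.0389).

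Other high sums rested on a few fragments. XLOC_2291268 stood at 12.4, 2.82 and 23.3 FPKM in pubertal libraries and was listed at 0 in all prepubertal ones (unadjusted p = 0.00164, adjusted p = 0.850). With forms of 213 and 228 nt, these levels came to 1, 1 and 4 fragments. A count of 0 allows up to 3 fragments, worth 8.14 FPKM at 213 nt and 4.36 FPKM at 228 nt over the 3 prepubertal libraries together, against 5.08 and 5.55 FPKM of these forms in the pubertal libraries pooled likewise. The 260-nt form of XLOC_2184117 was similar, with 6.55, 1.20 and 1.90 FPKM, or 3, 1 and 1 fragments, against 0 in each prepubertal library.

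Of the loci with lower sums, XLOC_957527 and XLOC_910648 are also named in the study's text or tables. XLOC_957527 stood at 0.709, 0.746 and 0.447 FPKM in pubertal and 1.70, 1.37 and 1.94 FPKM in prepubertal libraries, without overlap (change -0.71 ± 0.19, unadjusted p = 0.00817, adjusted p = 0.926). Its forms with different starts had lower pubertal means each, and a change in their ratio was not detected (unadjusted p = 0.832). The 886-nt form, with 0.709, 0.352 and 0.447 against 1.70, 1.13 and 1.06 FPKM, did not overlap between the stages, whereas the 871-nt form, with 0, 0.394 and 0 against 0.000126, 0.245 and 0.879 FPKM, did. XLOC_910648 stood at 0.798, 0.206 and 1.06 against 3.65, 4.89 and 1.98 FPKM (change -1.40 ± 0.34, unadjusted p = 0.00548, adjusted p = 0.926). All 3 of its forms were lower in pubertal goats at an unadjusted p under 0.05, with p of 0.0337 for the 306-nt form, 0.0169 for the 1336-nt form and 0.0366 for the 1284-nt form. The other 7 loci that the study names, of which XLOC_1486935 is described above, included XLOC_2056339, XLOC_263620, XLOC_047864, XLOC_1269384, XLOC_1831092 and XLOC_1021724, whose sums had unadjusted p between 0.192 and 0.973. XLOC_2056339, with forms of 3469 and 4031 nt, had its highest sum, 18.4 FPKM, in pubertal library 3 and 5.77 to 7.58 FPKM in the other 5.

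XLOC_1428164, XLOC_383415, XLOC_905383 and XLOC_364036 were lower too. XLOC_1428164 stood at 0.228, 0.195 and 0 against 1.66, 1.28 and 1.01 FPKM (change -1.02 ± 0.19, unadjusted p = 0.00168). XLOC_383415 stood at 0.120, 0.506 and 0.0761 against 1.30, 0.901 and 1.31 FPKM (change -0.83 ± 0.21, unadjusted p = 0.00696). XLOC_905383 stood at 0.169, 1.90 and 0.106 against 3.95, 6.03 and 3.13 FPKM (change -1.75 ± 0.43, unadjusted p = 0.00620). In each of these the stages did not overlap, and the adjusted p was 0.850 or above.

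XLOC_364036 held the only transcript of the lncRNA table that passed the adjustment. Its 245-nt form TCONS_00690107 had 0 FPKM in each pubertal library and 5.70, 4.76 and 4.604 FPKM in the prepubertal ones (adjusted p = 0.0126, limma over all lncRNA transcripts). Each of the 3 prepubertal values was 2 fragments. The call thus rests on 6 fragments against 0. Over the pubertal libraries together, the 3 fragments that a count of 0 allows are worth 2.42 FPKM at this length. The prepubertal libraries pooled likewise had 4.98 FPKM. Within single pubertal libraries 1 to 3 the limit was 10.2, 5.12 and 8.38 FPKM. The counting error of the 6 prepubertal fragments was not tested. Its other form, of 327 nt, was seen in pubertal library 3 at 1.97 FPKM, or 3 fragments, and in prepubertal library 3 at 0.511 FPKM, or 1 fragment. The locus sum was 0, 0 and 1.97 against 5.70, 4.76 and 5.11 FPKM (change -2.10 ± 0.45, unadjusted p = 0.00313, adjusted p = 0.926). The adjusted p of TCONS_00690107 rose to 0.119 without pubertal library 1, 0.0564 without prepubertal library 2 and 0.0782 without prepubertal library 3.

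**Figure D4:**
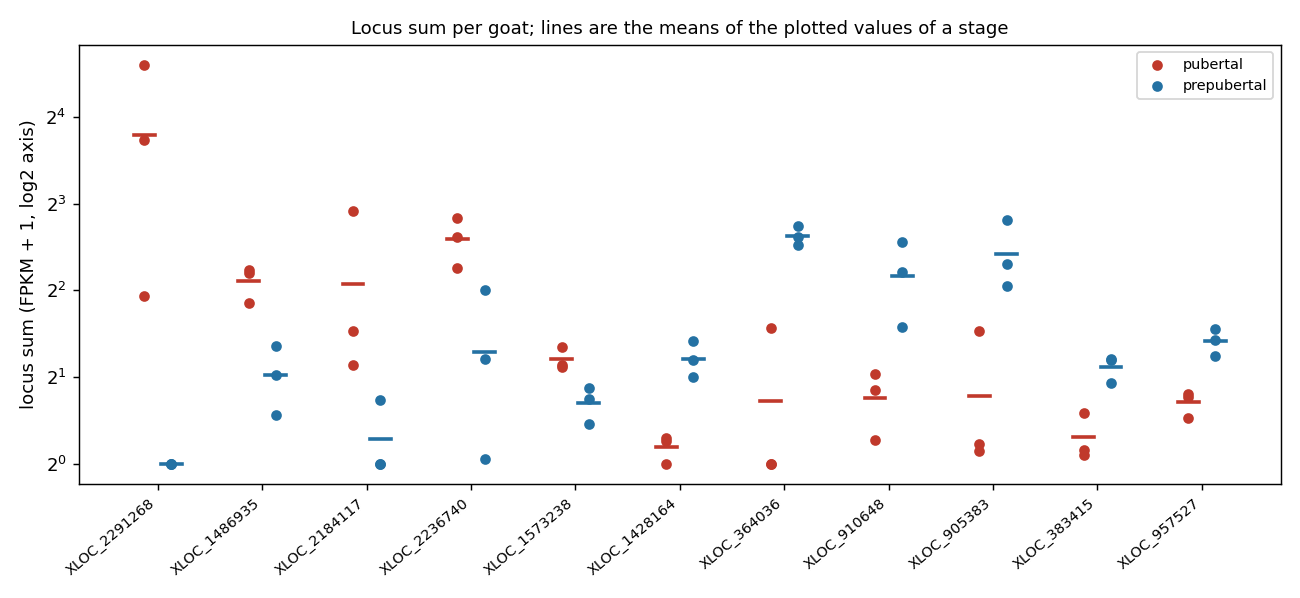
Locus sum per goat as FPKM + 1 on a log2 axis for the 5 loci with the lowest p among those higher in pubertal goats without overlap, the 5 lower ones, and XLOC_957527, with pubertal points in red, prepubertal points in blue and short lines for the mean of the plotted values. XLOC_2291268 lies at the floor in all prepubertal libraries, where its pubertal points stand for 1 to 4 fragments.

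Single forms and their locus did not always give the same call. Of 717 transcripts tested, 37 had an unadjusted p under 0.05, which is 5.16% against 3.52% of all 2925 lncRNA transcripts. Of these, 16 were higher (2.23% against 1.54%) and 21 lower (2.93% against 1.98%) in pubertal goats. TCONS_00690107 alone passed the adjustment (0.0342% of all transcripts), and the next adjusted p was 0.756. The stages did not overlap in 63 transcripts (8.79% against 6.67%), 27 of them higher (3.77% against 2.87%) and 36 lower (5.02% against 3.79%). The 37 lay in 33 loci, and in 11 of these the sum also had a p under 0.05. In 19 loci another transcript of the locus had a fold change of the opposite sign, and in 3 loci the sum had a p under 0.05 while no single form did. Over the 325 loci with 2 or more tested forms, fold changes within a locus differed in sign in 194.

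The third question was whether the share of the leading transcript differed between the stages. It was tested on the log2 ratio of the most abundant transcript to the rest, with 0.1 FPKM added to both, in the 319 loci with a mean sum of at least 0.5 FPKM. A library with a sum of 0 entered this test at equal parts. There were 11 loci with an unadjusted p under 0.05 (3.45% of all 319), 4 with a higher (1.25%) and 7 with a lower (2.19%) share in pubertal goats. None passed the adjustment (lowest adjusted p = 0.356, limma), and the stages did not overlap in 23 loci (7.21%), 13 higher (4.08%) and 10 lower (3.13%). In 3 loci both the share and the sum had a p under 0.05.

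A change of leader between the stages, with 1 form ahead in all pubertal and another in all prepubertal libraries, was seen in 2 of the 319 loci. In 49 of the 319 the most abundant transcript led in exactly 3 libraries of either stage. Whether 2 loci are more than arbitrary groups of 3 libraries would give was not tested. In XLOC_713336 the 2440-nt form held 87.0%, 100% and 100% in pubertal and 0.00125%, 11.0% and 19.0% in prepubertal libraries (change of the log2 ratio 4.02 ± 0.99, unadjusted p = 0.00632, adjusted p = 0.504). It shares 88.0% of the sequence of the 2418-nt form that led in the prepubertal goats, and the sums overlapped between the stages, at 0.671, 0.437 and 0.683 against 0.762, 0.0201 and 0.682 FPKM. In XLOC_1325189 the 984-nt form held 40.6%, 0.521% and 0% against 88.8%, 69.5% and 59.4% (change -2.76 ± 0.98, unadjusted p = 0.0297). Its 1448-nt form led in the pubertal goats.

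In 3 other loci the shares did not overlap between the stages though the leader did not change completely, and 1 of them had an unadjusted p under 0.05 (adjusted p of the 3 loci 0.838 or above). In XLOC_1249038 the 3767-nt form held 73.6%, 99.9% and 99.9% in pubertal and 55.0%, 38.8% and 63.7% in prepubertal libraries (change 2.88 ± 0.94, unadjusted p = 0.0210), although it and the 3805-nt form share 99.2% of their sequence. In XLOC_762525 the 981-nt form held 84.1%, 84.7% and 76.7% against 68.9%, 66.3% and 71.8% (change 0.93 ± 0.46, unadjusted p = 0.0878). In XLOC_2406084 the 469-nt form held 58.7%, 82.7% and 83.5% against 14.6% and 50.6%, with a sum of 0 in prepubertal library 1, which entered the test at equal parts (change 2.16 ± 0.93, unadjusted p = 0.0577).

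In 3 loci with a lower share in pubertal goats the levels of a second form lay above all prepubertal ones. In XLOC_2154869, whose alternative starts are printed above, the form with 285 bases of its own was listed at 0 in all prepubertal libraries and stood at 0.396, 0.638 and 0.431 FPKM in the pubertal ones. The other form held 38.6%, 51.5% and 37.5% against 100% in each prepubertal library (unadjusted p = 0.0128, adjusted p = 0.650). XLOC_264928 was alike, as its 701-nt form stood at 0.264, 0.344 and 0.913 against 0, 0 and 0.00221 FPKM (share of the 1256-nt form 67.6%, 47.6% and 14.5% against 100%, 100% and 99.7%, unadjusted p = 0.0143). In XLOC_728799 a 349-nt form stood at 1.38, 1.70 and 1.52 against 0, 0.818 and 0.00949 FPKM, and the share of the 448-nt form was 65.3%, 56.1% and 54.2% against 95.8%, 77.5% and 90.5% (change -2.23 ± 0.61, unadjusted p = 0.00980). The locus sums of these 3 loci had unadjusted p between 0.130 and 0.345.

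In XLOC_905383 and XLOC_364036 the share and the sum were both lower in pubertal goats, with the same short form low in each. The 264-nt form of XLOC_905383 stood at 0, 1.10 and 0 against 3.47, 5.87 and 2.81 FPKM, or 0, 1 and 0 against 2, 4 and 2 fragments, and its share was 0%, 58.2% and 0% against 87.8%, 97.3% and 89.9% (unadjusted p = 0.00223, adjusted p = 0.356). The 784-nt form of that locus overlapped between the stages. The share test of XLOC_364036 (unadjusted p = 0.00474) took in 2 pubertal libraries with a sum of 0 at equal parts. The share test of XLOC_2184117 (unadjusted p = 0.00201, adjusted p = 0.356) took in 2 prepubertal libraries likewise.

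**Figure D5:**
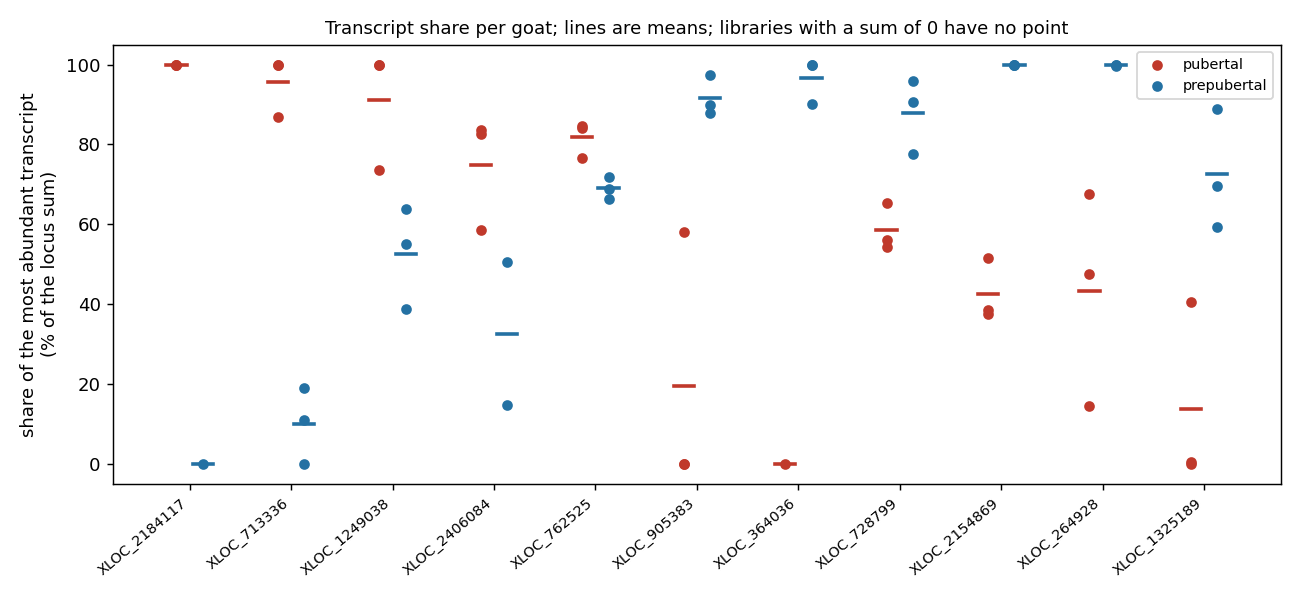
Share of the most abundant transcript in percent of the locus sum for the loci named for their share, with pubertal points in red, prepubertal points in blue and short lines for the means; libraries with a sum of 0 have no point. The stages do not overlap in any of these 11 loci, and XLOC_713336 and XLOC_1325189 lie on opposite sides of 50%.

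The mRNAs of proteins that direct splicing were measured in the same libraries. Of a list of 60 regulators 58 were found, and 1 had an unadjusted p under 0.05 in the test over all mRNA genes (846 of 16397 genes, 5.16%), with none past the adjustment (lowest adjusted p = 0.938). This was SRRM3, a relative of the neuronal microexon factor SRRM4, at 9.25, 11.6 and 9.77 FPKM in pubertal and 6.73, 7.24 and 9.36 FPKM in prepubertal libraries (change 0.36 ± 0.14, unadjusted p = 0.0367), and the stages overlapped by 1 pair of values. CELF4, an RNA-binding protein of neurons, was the only regulator without overlap (against 9.75% of all mRNA genes), at 21.5, 22.5 and 18.4 against 25.5, 23.0 and 23.8 FPKM (change -0.21 ± 0.10, unadjusted p = 0.0750). ELAVL4, a neuronal binder of AU-rich RNA, changed by -0.25 ± 0.12 (unadjusted p = 0.0667) and KHDRBS2 by -0.25 ± 0.15 (unadjusted p = 0.131). The most abundant were HNRNPA1, QKI and HNRNPK, with means of 456, 325 and 302 FPKM and unadjusted p between 0.393 and 0.794. The median change of the 58 was -0.02 on the log2 scale, against -0.00065 over all genes.

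Cell markers were summed to see how alike the dissections were. Of 15 hypothalamic markers 11 were found, 1 of them (AVP) listed at 0 in all libraries. Their summed levels were 1278 to 2421 FPKM in pubertal and 1567 to 2485 FPKM in prepubertal libraries. The highest was PMCH, at 2173, 951 and 673 against 2050, 938 and 2173 FPKM. AGRP stood at 22.7, 5.69 and 28.3 against 97.5, 176 and 22.3 FPKM. POMC was at 429 FPKM in pubertal library 3 and 22.9 to 85.1 FPKM elsewhere. GNRH1, at 13.5, 14.1 and 16.0 against 6.92, 11.6 and 5.34 FPKM, alone among the hypothalamic markers did not overlap between the stages. Markers of neurons stood at 622 to 741 and 664 to 739 FPKM and of microglia at 141 to 173 and 149 to 176 FPKM. Astrocyte markers stood at 2731 to 3115 and 2656 to 2867 FPKM, most of it GFAP. GFAP and AQP4 overlapped between the stages, while ALDH1L1 did not, at 11.4, 15.2 and 19.0 against 11.1, 8.02 and 9.13 FPKM. Markers of the anterior pituitary, 5 of 6 found, stood at 52.8 to 66.0 in pubertal and 3.67 to 20.9 FPKM in prepubertal libraries, without overlap. Most of that was CGA, the shared subunit of the pituitary glycoprotein hormones, while GH1 was listed at 0 in 5 libraries. The oligodendrocyte markers MBP, listed at 0 in prepubertal library 1, and MOG together stood at 577 to 3447 and 95.3 to 983 FPKM. Choroid plexus markers stood at 4.66 to 316 and 6.08 to 56.9 FPKM, and TTR made up 309 FPKM of the highest sum. Red blood cell markers stayed at 0.622 FPKM or less. The part of these other tissues in the lncRNA differences was not tested.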

How the data were processed

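Hypothalamus of 3 pubertal and 3 prepubertal goats was sequenced, 1 library per goat, grouped by the stage in the labels. For alignment the authors used TopHat, for assembly Scripture together with Cufflinks 2.1.1, and for their comparison Cuffdiff 2.1.1. The genome build is not given in the sources used here. Transcript levels in FPKM for each library, scaled by the authors for length and mapped fragments, were deposited with the lncRNA sequences. A deposited comparison of both stages was used only to pair transcripts with loci, and its fold changes, p-values and group means were not used. Of the per-library columns 0 were left out. Fragments behind short transcripts were read from steps in their levels, and limits of 0 cover counting error only.

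Locus sums, transcripts and mRNA genes with a mean of at least 0.1 FPKM were tested as log2(FPKM + 1) with limma 3.58.1 in R 4.3.3 (lmFit, eBayes with a trend, two-sided) and Benjamini-Hochberg adjustment at 0.05. Shares were tested as log2 ratios with 0.1 FPKM added, where the mean sum was at least 0.5 FPKM. Fold changes with a pseudocount understate low levels. The limma fits of locus sums and shares were run on simulated data with normal noise. The reading of fragments from steps was not checked in this way. The remaining work was done in Python 3.11.15 (pandas 2.3.3, numpy 2.4.6, matplotlib 3.10.9). Loci named were those in the study's text or tables, the 5 highest sums, the 3 with most transcripts, up to 5 in each direction with the lowest p and no overlap in sum and in share, and those with a change of leader. Regulators named were the 4 with the lowest p and the 3 most abundant. TCONS_04802320, in the closing part, falls outside this rule. The members and lists were chosen with earlier results of these data known. Gene symbols came from a RefSeq table of another build, used for names only. Alternatives were other pseudocounts, minimums, normalizations and tests of share, a replicate block, and each library left out.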

Additional observations from a re-analysis of the deposited data

How the results depend on the processing

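The higher median level of loci with several transcripts and the share of loci with 1 leader kept their direction under all alternatives tried, the latter between 20.9% and 28.5%. No locus sum or share passed the adjustment in any alternative on all 6 libraries. Single transcripts with an unadjusted p under 0.05 were 11 of 210 at a minimum mean of 1 FPKM, and loci with a share at p under 0.05 were 6 of 233 at a minimum sum of 1 FPKM and 7 of 277 where every library had a sum above 0, a choice made after seeing the data. Fewer features were tested in each. diffSplice, another test of shares in limma, gave 16 loci at p under 0.05 and 0 after adjustment. Deviations of libraries with the same replicate number correlated weakly (r from -0.05 to 0.01 for sums and 0.07 to 0.19 for shares). Whether such libraries share more than the number cannot be told from this. With the replicate block the counts at p under 0.05 were 15 sums, 34 transcripts, 18 shares (9 higher, 9 lower) and 1 regulator, and 0 transcripts passed the adjustment (TCONS_00690107, adjusted p = 0.384). Leaving out each library in turn gave 13 to 25 sums, the most without prepubertal replicate 1, 32 to 43 transcripts, 11 to 18 shares and 0 to 8 regulators, the most without pubertal replicate 1. After adjustment it gave 0 to 1 sums (XLOC_364036, adjusted p = 0.0269 without pubertal replicate 3) and 0 to 2 transcripts. The second transcript was TCONS_04848799 of XLOC_2291268 without pubertal replicate 2 (adjusted p = 0.0255) or TCONS_04802320 of XLOC_2313116 without prepubertal replicate 1 (adjusted p = 0.0315). The cause of these shifts was not tested.

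Of the 66 sums and shares of the 33 named loci, 3 changed sign in another setting on all libraries. The sum change of XLOC_1021724 was 0.0286 after quantile normalization, that of XLOC_049553 was 0.0281 after it and 0.0124 after centring on the median. The share change of XLOC_957527 was -0.30 as a log2 ratio and 0.12 by the arcsine of the share, which is on another scale. Without 1 library, sum changes spanned 0 in XLOC_047864 (-0.0930 to 0.16), XLOC_1021724 (-0.50 to 0.56), XLOC_1831092 (-0.11 to 0.12), XLOC_263620 (-0.11 to 0.19), XLOC_049553 (-0.27 to 0.34), XLOC_2040430 (-0.12 to 0.27), XLOC_1563180 (-0.15 to 0.24), XLOC_785699 (-0.41 to 0.17), XLOC_413637 (-0.35 to 0.55) and XLOC_713336 (-0.11 to 0.28). Share changes did so in XLOC_1831092 (-0.26 to 0.0212), XLOC_910648 (-2.13 to 0.25), XLOC_957527 (-1.22 to 0.74), XLOC_049553 (-0.67 to 1.21), XLOC_2036925 (-0.75 to 0.16), XLOC_2040430 (-0.88 to 0.0093), XLOC_1563180 (-0.35 to 0.90), XLOC_2291268 (-2.78 to 3.13), XLOC_1573238 (-0.82 to 2.05) and XLOC_383415 (-1.42 to 0.45). None of these 20 had passed the adjustment. Depth limits short transcripts most, where a few fragments make up a value, but its part in these sign changes was not tested.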
